A study of Rattus norvegicus with 20 samples.

Results

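The comparison was between the livers of 5 rats given tofu and fish oil together (TF) and of 5 rats given casein and soybean oil (CS), in which the source of the protein and the source of the oil were exchanged at once. The members were the 10 arrays that the labels assign to TF or CS, of 20 arrays in the series, and every probe set other than the controls with at least 3 values in each group, 31039 probe sets in all. The TF rats received freeze-dried tofu as the main protein, completed with casein, and fish oil at 50 g/kg diet, with the remaining fat coming from the tofu. The CS rats received casein as the only protein and soybean oil as the only oil. Diets of every group held 200 g/kg of protein and 150 g/kg of fat, but the tofu diets held somewhat less sucrose and energy. The diets were fed for 21 days to male Sprague-Dawley rats, an outbred strain, that were 4 weeks old at purchase. No gene was altered and no drug was part of the diets. The rats were killed by bleeding under isoflurane anesthesia after 3 h without food. Each array held the liver RNA of 1 rat without pooling, so the spread within a group is a spread between animals, and the rats of each group that had eaten most and least had been left out. The other 10 arrays, 5 of tofu with soybean oil (TS) and 5 of casein with fish oil (CF), entered the estimate of the spread and a comparison of their own. Tofu brings soybean protein together with soybean fat and other components, so the exchange was of foods and not of pure protein.

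The liver makes fatty acids from surplus carbohydrate in the cytosol, by a chain of enzymes that runs over citrate, acetyl-CoA and malonyl-CoA and whose genes are driven by the factors SREBP-1c and ChREBP. It breaks fatty acids down in mitochondria and peroxisomes, and the genes of these pathways are targets of PPAR-alpha, a nuclear receptor that binds fatty acids, the long polyunsaturated ones of fish oil among them. Cholesterol and plant sterols leave the liver in bile, as such or as bile acids.

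The values were z scores on a log scale, in which 0 lies near the middle of an array. A difference of 0.2 in z was taken as 1.41-fold, so that 1 in z equals 2.5 log2 units, and a fold is given only where both group means lay above the highest array median, 0.0244. The defining markers of hepatocytes were the brightest of all marker lists, with rat means of the list between 3.09 and 3.33 in TF livers and between 3.07 and 3.19 in CS livers. Array medians lay between -0.102 and 0.0244 in TF livers and between -0.0683 and -0.0325 in CS livers. On 4 arrays, TF-3 and CS-1 among them, the 5′ probe set of beta-actin, a sign of RNA length, read 1.30 to 1.42, against 1.86 to 2.13 on the other 16. The mean correlation with the other arrays was 0.939 to 0.943 for TF-4, TF-5 and TS-7, and 0.951 to 0.956 for the other 17. The median difference between TF and CS over all probe sets was 0.0119 in z, and it was not subtracted from the differences below.

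The joint exchange was followed by differences in 142 of 31039 probe sets (0.457%) at an adjusted p under 0.05, of which 89 rose (0.287%) and 53 fell (0.171%) in TF livers. At an unadjusted p under 0.05 there were 2999, where 1551.95 would be expected by chance. With each gene represented by its brightest probe set, 107 of 14217 genes passed (0.753%), 77 that rose (0.542%) and 30 that fell (0.211%). These shares include dim genes, so the counts of lists of bright genes below are not compared with them like for like. All 5 TF livers lay beyond all 5 CS livers in 103 of these 107 genes, which were chosen by p on the same values, so that the count is a description, and the 4 with overlap were Oat, Wnt11, Pgd and Plxna2. Over all 31039 probe sets the groups did not overlap in 2.25% (1.3% higher and 0.957% lower in TF). The differences were mostly small, with 40 of the 107 genes under 0.3 in z and 24 over 0.5. The deepest falls were those of Pnpla3, Fasn and Scd, and the highest rises were those of Acot1, Hdc and Fmo1. Under quantile normalization of the arrays the split between 89 rises and 53 falls became 83 rises and 79 falls.

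**Figure D1:**
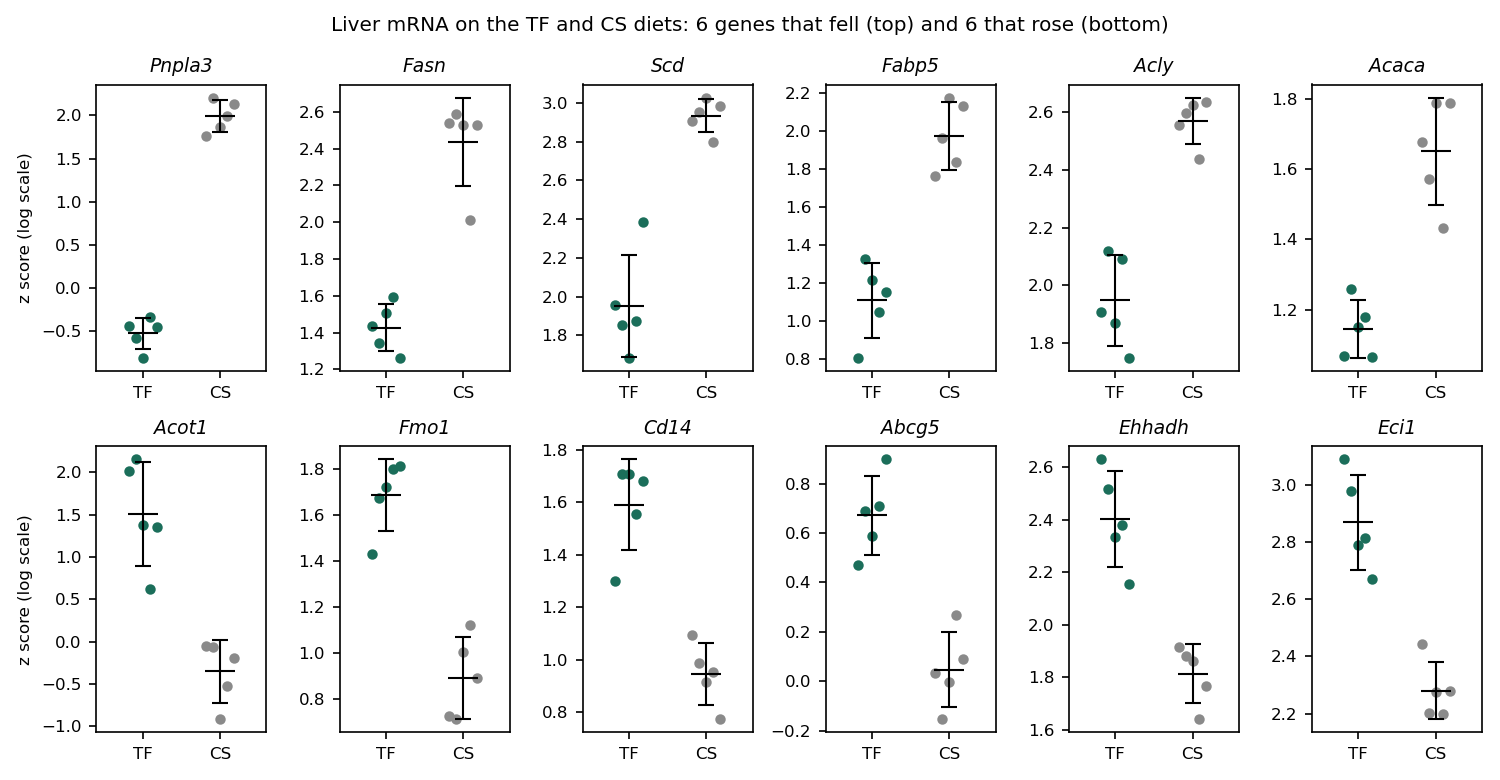
z scores (log scale, y axis) of 12 genes in single livers of the TF and CS diets (x axis), 5 rats each. Each point is a rat, the cross bar is the mean and the whiskers are ± SD. The y axes differ between panels. In all 12 genes the TF and CS rats do not overlap, with Scd in TF-7 (2.39) and Fasn in CS-6 (2.01) nearest to the other diet among those 2 genes.

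Genes of fatty acid synthesis were lower in TF livers throughout. Of 16 measured members of that list, 8 fell and 0 rose, where 0.211% of all 14217 genes fell. That share includes dim genes, whereas rat means of this list were 1.17 to 1.33 in TF livers and 1.62 to 1.83 in CS livers. The shares are therefore not like for like. All 16 had a lower mean in TF, and the median difference was -0.33 in z, against 0.0101 over all genes. The list was chosen with earlier results of these data known, so these counts are a description. It includes Pnpla3, which the list of lipid droplets also holds. Pnpla3, a lipid droplet lipase and acyltransferase whose mRNA rises with carbohydrate feeding, showed the deepest fall of any gene. It stood at -0.442, -0.576, -0.808, -0.335 and -0.456 in z in the 5 TF livers, against 1.76, 2.21, 1.87, 2.0 and 2.13 in the 5 CS livers. Pnpla3 therefore lay under the middle of the array in every TF liver and far above it in every CS liver. The difference was -2.51 (SE 0.134, adjusted p = 3.75e-09), with no fold since the TF mean was below the limit, and the other 2 probe sets of Pnpla3 fell by 1.97 and 1.45.

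Fasn encodes fatty acid synthase, which builds palmitate from malonyl-CoA. Its z scores were 1.43, 1.34, 1.51, 1.59 and 1.26 in TF livers, against 2.54, 2.59, 2.53, 2.01 and 2.53 in CS livers. CS-6 was the lowest CS liver and still exceeded the highest TF liver. Fasn was 5.78-fold lower in TF (-1.01 in z, SE 0.135, adjusted p = 0.0010), and its second probe set fell by 1.07. Scd, the stearoyl-CoA desaturase that makes oleate, read 1.96, 1.85, 1.68, 1.88 and 2.39 in TF livers, against 2.91, 2.95, 3.03, 2.80 and 2.98 in CS livers. TF-7 was the highest of the TF livers, and the groups did not overlap. Scd was 5.5-fold lower (-0.98, SE 0.123, adjusted p = 0.000688). Acly, which cleaves citrate to acetyl-CoA in the cytosol, read 1.91, 2.12, 1.87, 2.09 and 1.75 in TF livers, against 2.56, 2.60, 2.63, 2.44 and 2.64 in CS livers, a 2.94-fold lower mean (-0.62, SE 0.0706, adjusted p = 0.000231). Acaca, the cytosolic acetyl-CoA carboxylase that makes malonyl-CoA, read 1.07, 1.26, 1.15, 1.18 and 1.07 in TF livers, against 1.68, 1.57, 1.79, 1.43 and 1.79 in CS livers. It was 2.40-fold lower (-0.51, SE 0.0782, adjusted p = 0.00345), whereas its dimmer probe set did not pass (adjusted p = 0.398).

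The chain of enzymes from citrate to oleate was thus lower at each of its 4 main steps, Acly, Acaca, Fasn and Scd. Thrsp, the Spot 14 protein that goes with lipogenesis, was 2.65-fold lower (-0.56, adjusted p = 0.0456), and Elovl6, which lengthens palmitate to stearate, was 2.44-fold lower (-0.52, adjusted p = 0.0288). Pgd, an enzyme of the pentose phosphate pathway that supplies NADPH, was 1.58-fold lower (adjusted p = 0.0475). Me1, malic enzyme, which supplies NADPH as well, had -0.36 and an adjusted p of 0.238 at its brightest probe set and -0.59 with an adjusted p of 0.0239 at the other. The factors themselves did not pass, Srebf1 with -0.21 (adjusted p = 0.474) and Mlxipl, which encodes ChREBP, with -0.13 (adjusted p = 0.183). The calls of Pnpla3, Fasn, Scd, Acly and Acaca held in each of the 20 fits without 1 rat. Those of Elovl6, Thrsp and Pgd were lost without 8, 15 and 17 of the 20 rats, with adjusted p up to 0.0958, 0.122 and 0.143, in each case highest without CS-2.

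The promoters of Pnpla3 and Acly are shown because these genes fell together and because the CCAAT box, bound by the factor NF-Y, is known beside SREBP elements. The stretches are the 250 bases before the transcription start in RefSeq for the build GRCr8, chr7:117173278-117173527 on the plus strand and chr10:85963632-85963881 on the minus strand, written 5′ to 3′ along the gene. Capitals mark CCAAT or its reverse complement ATTGG.
Pnpla3: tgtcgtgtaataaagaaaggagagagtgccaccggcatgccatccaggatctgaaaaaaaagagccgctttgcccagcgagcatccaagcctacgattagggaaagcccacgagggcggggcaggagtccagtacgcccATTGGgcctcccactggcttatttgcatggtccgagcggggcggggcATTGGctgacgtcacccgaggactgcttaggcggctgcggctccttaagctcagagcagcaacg
Acly: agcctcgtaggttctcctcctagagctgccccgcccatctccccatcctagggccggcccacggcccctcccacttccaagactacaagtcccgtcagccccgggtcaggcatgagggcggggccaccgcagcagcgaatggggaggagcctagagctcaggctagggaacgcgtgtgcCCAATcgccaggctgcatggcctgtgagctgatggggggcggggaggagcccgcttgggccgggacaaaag
Pnpla3 held 2 such matches and Acly 1. Of the 30 genes that fell, 22 matched a RefSeq promoter by symbol, and 11 of these 22 held CCAAT on either strand (34.02% of all 33469 promoters). The same letters were in 31 of the 68 matched promoters of genes that rose. The SREBP type element TCACNCCAC was in 0 of the 22 and in 0.97% of all promoters, which says only that these letters are not in these windows.

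Outside that list, the fatty acid carriers Fabp5 and Fabp2 and the desaturase Fads2 were among the falls. Fabp5, a fatty acid carrier best known from skin and adipose tissue, read 0.804, 1.32, 1.22, 1.04 and 1.15 in TF livers, against 1.76, 1.96, 2.18, 1.84 and 2.13 in CS livers. Every TF liver lay below every CS liver, and the mean was 4.49-fold lower (-0.87, SE 0.118, adjusted p = 0.00106). Fabp2, the carrier of the intestine, read -0.0888, -0.0836, -0.246, -0.386 and -0.112 in TF livers, against 0.653, 0.369, 0.324, 0.493 and 0.195 in CS livers (-0.59, SE 0.0984, adjusted p = 0.00721). Of the 18 measured genes of fatty acid binding and uptake, 2 fell, 0 rose and the median was 0.000550. Fabp5 and Fabp2 were its only calls, where 0.211% of all genes fell. Of 12 genes of desaturation and elongation 3 fell, Scd and Elovl6, which the synthesis list also holds, and Fads2, the delta-6 desaturase of polyunsaturated fatty acids (1.82-fold lower, adjusted p = 0.0296). Fads1, the delta-5 desaturase, had -0.22 with an adjusted p of 0.0716. Further falls were those of the phospholipases Ddhd1 (3.02-fold lower, adjusted p = 0.0213) and Ddhd2 (1.51-fold lower, adjusted p = 0.0236) and of the fructose transporter Slc2a5 (1.94-fold lower, adjusted p = 0.00897). The 7 adipocyte markers measured had no call, with rat means of the list from 0.392 to 0.550 in TF livers and from 0.467 to 0.502 in CS livers. Fabp5, Fabp2 and Slc2a5 kept their calls in each fit without 1 rat, and Fads2, Ddhd1 and Ddhd2 lost theirs without 8, 7 and 6 of the rats. Slc2a5 also lost its call without the 4 arrays of low 5′ actin.

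Calls among genes of fatty acid breakdown, in mitochondria and in peroxisomes, were rises. Of 19 measured genes of mitochondrial beta-oxidation, 6 rose and 0 fell, where 0.542% of all genes rose. Here too the shares are not like for like, since rat means of this list were 2.09 to 2.24 in TF livers and 1.88 to 1.97 in CS livers. All 19 had a higher mean in TF, and the median difference was 0.184, against 0.0101 over all genes. Of 17 peroxisomal genes 4 rose and 0 fell, again with every mean higher in TF and a median of 0.179. Eci1, the isomerase that prepares unsaturated fatty acids for mitochondrial oxidation, read 3.09, 2.98, 2.79, 2.81 and 2.67 in TF livers, against 2.44, 2.20, 2.27, 2.20 and 2.28 in CS livers. The groups did not overlap, and the mean was 2.77-fold higher in TF (0.59, SE 0.0764, adjusted p = 0.000790). A dimmer probe set of Eci1 read 0.07 (adjusted p = 0.959), and with the mean of both probe sets in place of the brightest the adjusted p was 0.244. Ehhadh, the bifunctional enzyme of peroxisomal oxidation, read 2.63, 2.52, 2.33, 2.38 and 2.15 in TF livers, against 1.92, 1.88, 1.86, 1.64 and 1.77 in CS livers. All TF livers were above all CS livers, 2.78-fold in the mean (0.59, SE 0.0892, adjusted p = 0.00297).

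The other mitochondrial rises were those of Ech1 (1.96-fold) and Decr1 (1.73-fold), both of which act on unsaturated fatty acids, of Hadhb (1.60-fold) and Hadh (1.41-fold), which act in the last steps of the oxidation cycle, and of Acadm (1.59-fold), the medium chain acyl-CoA dehydrogenase. In peroxisomes they were Pex11a (1.98-fold), which acts in peroxisome division, Decr2 (1.70-fold), the peroxisomal dienoyl-CoA reductase, and Phyh (1.66-fold), which starts the breakdown of phytanate. Lonp2, the protease of the peroxisome matrix, was 1.63-fold higher (adjusted p = 0.00419). Acsm3, a medium chain acyl-CoA synthetase, had the largest difference of the mitochondrial list, 0.79, but an adjusted p of 0.0989 and overlapping groups. Eci1, Ech1, Hadhb, Acadm, Ehhadh and Decr2 kept their calls without any 1 rat, and Decr1, Hadh, Phyh and Pex11a lost theirs without 18, 13, 8 and 4 of the 20 rats, with adjusted p up to 0.132, 0.116, 0.115 and 0.0632. The dimmer probe set of Hadh had 0.10 (adjusted p = 0.781), and with the mean of both probe sets Hadh lost its call.

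**Figure D2:**
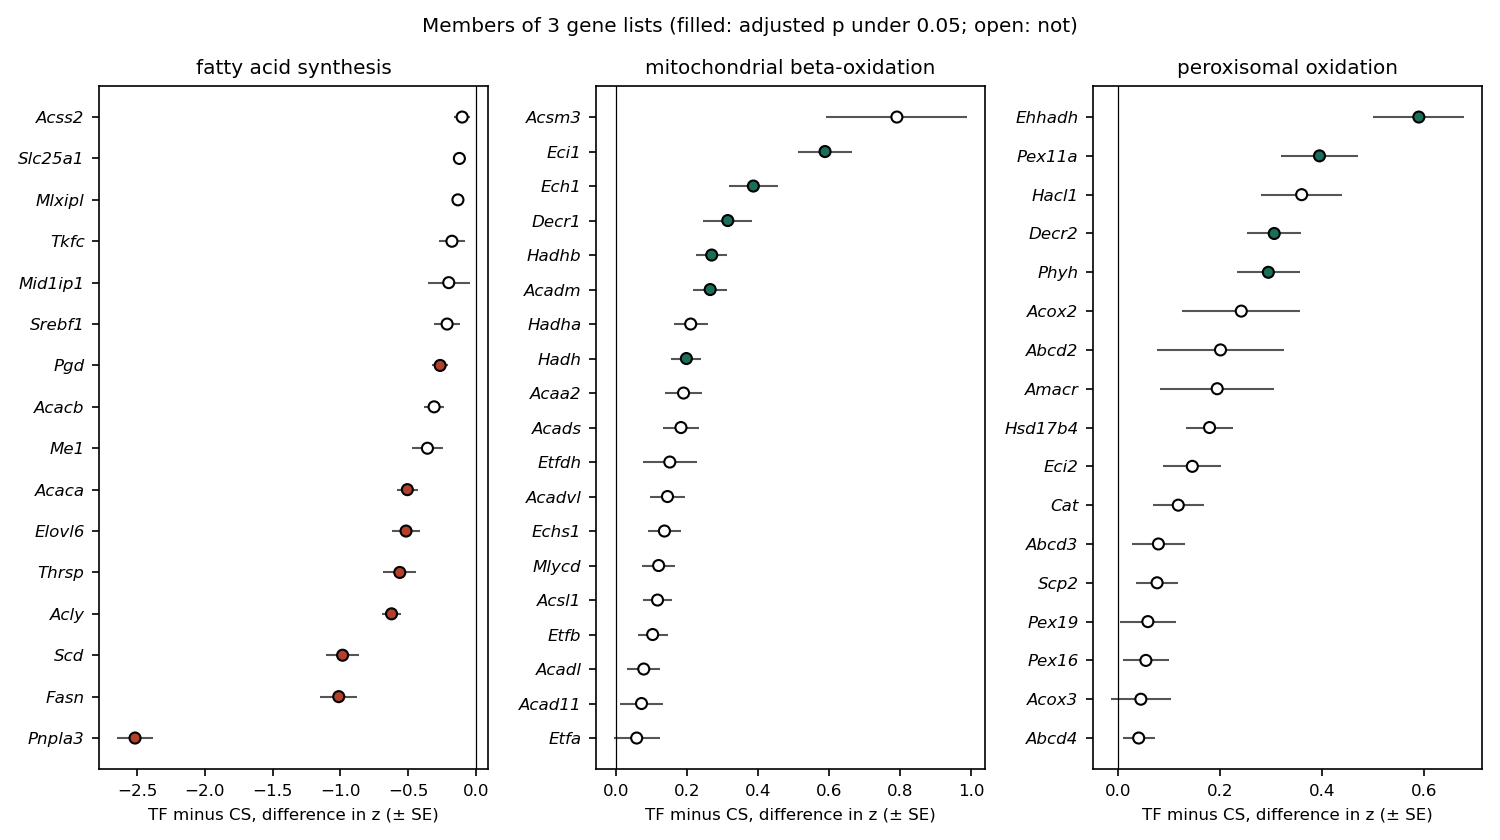
Difference in z between TF and CS (x axis, TF minus CS, ± SE) for each measured member of 3 gene lists (rows). Filled points had an adjusted p under 0.05 (red fell, green rose) and open points did not. All 16 points of fatty acid synthesis lie left of 0, and all 19 of mitochondrial and all 17 of peroxisomal oxidation lie right of it. The x axes differ between panels.

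Single acyl-CoA thioesterases, carnitine enzymes and omega-hydroxylases rose as well. Of 13 measured thioesterases 2 rose, 0 fell and 11 did not pass, where 0.542% of all genes rose. Acot1, the cytosolic long chain acyl-CoA thioesterase, had the largest rise of all genes. Its z scores were 2.02, 2.16, 1.38, 0.625 and 1.35 in TF livers, against -0.0457, -0.0609, -0.918, -0.525 and -0.196 in CS livers. All CS livers were below 0 and all TF livers above it, with a wide spread in both diets. The difference was 1.85 (SE 0.312, adjusted p = 0.00751). Its mitochondrial relative Acot2 was 2.02-fold higher (adjusted p = 0.0189), and 2 of its 3 probe sets passed. Acot3 and Acot4 each had 0.22 and did not pass (adjusted p = 0.480 and 0.301). These genes are close copies, so probes of 1 may read another. Of 9 carnitine genes 2 rose, Crot, which moves medium chains out of peroxisomes (2.36-fold, adjusted p = 0.000774), and Slc25a20, the carnitine carrier (1.49-fold, adjusted p = 0.0325). Cpt2 had 0.16 and an adjusted p of 0.375.

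Of 13 genes of omega-oxidation 3 rose, Cyp4a1, Cyp4a3 and Adh4 (0.542% of all genes rose), and 4 had a lower mean in TF. Cyp4a1, the microsomal omega-hydroxylase of fatty acids, read 3.02, 2.89, 2.76, 2.75 and 2.74 in TF livers, against 2.34, 2.35, 2.36, 2.13 and 2.39 in CS livers. It was 2.46-fold higher with no overlap (adjusted p = 0.00196), and its relative Cyp4a3 was 1.91-fold higher (adjusted p = 0.0236), with the same limit on close copies. Vnn1, the pantetheinase that acts in the turnover of coenzyme A, read 1.65, 1.80, 1.47, 1.47 and 1.45 in TF livers, against 1.18, 0.832, 0.838, 0.819 and 0.848 in CS livers. It was 3.18-fold higher (0.67, SE 0.10, adjusted p = 0.00272), and CS-1 stood above the other CS livers. Creb3l3, a factor of the fasting liver, was 1.56-fold higher (adjusted p = 0.0203). Of the fasting genes that go with these, Fgf21 and Pdk4 had -0.52 and -0.48 with overlapping groups and adjusted p of 0.0592 and 0.102. Cidea, a lipid droplet protein, was 2.31-fold higher (adjusted p = 0.0133), and Aig1, a hydrolase of branched fatty acid esters, 2.21-fold higher (adjusted p = 0.00649), with a dim probe set at 0.06. Acot1, Crot, Cyp4a1, Vnn1, Cidea and Aig1 held without any 1 rat, whereas Acot2, Cyp4a3, Creb3l3 and Slc25a20 were lost without 3, 5, 6 and 9 rats. Without TF-4, TF-5 and TS-7, the arrays least like the others, Acot1 had an adjusted p of 0.0853 and Aig1 lost its call as well, and without the 4 arrays of low 5′ actin Cidea had an adjusted p of 0.0695.

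The promoters of Eci1, Cyp4a3 and Lonp2 are shown since these genes rose together and since their 250 bases before the RefSeq start hold AGGTCA, the hexamer that nuclear receptors such as PPAR-alpha bind in pairs. They lie in GRCr8 at chr10:13961000-13961249 (plus strand), chr5:134352237-134352486 (minus strand) and chr19:36672243-36672492 (minus strand). Capitals mark AGGTCA or its reverse complement TGACCT, 5′ to 3′ along the gene.
Eci1: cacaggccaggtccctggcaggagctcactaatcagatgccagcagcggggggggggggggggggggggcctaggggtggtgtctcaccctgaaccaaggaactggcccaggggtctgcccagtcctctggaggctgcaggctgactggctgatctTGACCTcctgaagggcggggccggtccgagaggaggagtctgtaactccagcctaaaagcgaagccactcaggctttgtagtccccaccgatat
Cyp4a3: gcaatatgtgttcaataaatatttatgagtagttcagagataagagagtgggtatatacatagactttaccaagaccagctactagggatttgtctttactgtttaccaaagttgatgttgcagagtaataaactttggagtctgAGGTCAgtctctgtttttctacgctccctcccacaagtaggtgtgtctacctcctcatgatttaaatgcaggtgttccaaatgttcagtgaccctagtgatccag
Lonp2: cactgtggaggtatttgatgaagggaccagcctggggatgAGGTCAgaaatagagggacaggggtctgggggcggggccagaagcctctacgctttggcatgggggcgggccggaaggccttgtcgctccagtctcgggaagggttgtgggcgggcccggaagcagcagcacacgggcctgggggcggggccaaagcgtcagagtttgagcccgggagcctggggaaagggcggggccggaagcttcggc
Of the 77 genes that rose, 68 matched a RefSeq promoter, and 10 of the 68 held AGGTCA on either strand, while 14.06% of all 33469 promoters did. The direct repeat of this hexamer, AGGTCA followed by any 1 base and AGGTCA again, was in 0 of the 68 and in 0.05% of all. A match is a description of the letters and not a site.

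Sterol export genes and an enzyme of bile acid synthesis rose, and cholesterol synthesis had no call. Abcg5 and Abcg8 encode the 2 subunits of the transporter that moves cholesterol and plant sterols into bile. Abcg5 read 0.471, 0.689, 0.588, 0.71 and 0.900 in TF livers, against 0.0349, -0.155, -0.00305, 0.267 and 0.0888 in CS livers. Abcg8 read -0.102, 0.172, -0.129, 0.0889 and 0.235 in TF livers, against -0.634, -0.907, -0.625, -0.335 and -0.419 in CS livers. Both subunits were higher in every TF liver than in any CS liver, by nearly the same amount. The difference of Abcg5 was 0.63 (2.95-fold, SE 0.108, adjusted p = 0.00897) and that of Abcg8 was 0.64 (SE 0.119, adjusted p = 0.0171). The genes start back to back, and RefSeq places 205 bases between their starts, chr6:15717731-15717935 in GRCr8, which both share as promoter. The stretch is shown along Abcg5, with the CCAAT box, here as its reverse complement, in capitals.
Abcg5 and Abcg8: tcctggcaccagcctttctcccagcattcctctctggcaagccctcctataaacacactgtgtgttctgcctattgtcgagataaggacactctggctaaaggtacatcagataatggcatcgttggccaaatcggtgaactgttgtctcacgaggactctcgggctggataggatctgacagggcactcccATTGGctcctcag
Cyp8b1, the sterol 12-alpha-hydroxylase that sets the share of cholic acid, read 2.59, 2.40, 2.25, 2.53 and 2.44 in TF livers, against 2.02, 1.90, 2.09, 1.97 and 2.12 in CS livers. The groups did not overlap, and it was 2.07-fold higher in TF (adjusted p = 0.0143). Cyp7a1, the rate-limiting enzyme of bile acid synthesis, had 0.53 (SE 0.227) with overlapping groups and an adjusted p of 0.442. Of the 21 genes of bile acid synthesis and transport 3 rose, 0 fell and the median was 0.130, where 0.542% of all genes rose. Of 18 genes of cholesterol synthesis 0 passed in either direction, with a median of -0.0322 and a range from -0.24 (Lss) to 0.12 (Idi1). A dimmer probe set of Sc5d fell by 0.39 (adjusted p = 0.00712), while its brightest had -0.10 (adjusted p = 0.455). Insig1, a sterol sensor and SREBP target, had -0.42, no overlap and an adjusted p of 0.135. Abcg5 kept its call in every fit without 1 rat but had an adjusted p of 0.0608 without TF-4, TF-5 and TS-7. Abcg8 lost its call without CS-2, TF-6 or TF-7 (adjusted p up to 0.0589), and Cyp8b1 without CS-2 or TF-6 (up to 0.0521). Both also lost it without the 4 arrays of low 5′ actin, and Abcg8 without TF-4, TF-5 and TS-7.

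Apolipoproteins and the protease inhibitors of plasma had no call. Of 18 genes of apolipoproteins and lipoprotein assembly 0 passed and 13 had a lower mean in TF, with a median of -0.0366. Apoa4, made in step with fat output, read 2.26, 2.03, 2.34, 2.36 and 2.27 in TF livers, against 2.70, 2.67, 2.91, 2.57 and 2.74 in CS livers. Its groups did not overlap, but the adjusted p was 0.0664 (-0.47, SE 0.108). Of 13 protease inhibitors 0 passed, and A2m, alpha-2-macroglobulin, had 0.40 with an adjusted p of 0.144.

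Single genes of drug and xenobiotic metabolism rose in TF livers, while most members of their lists did not pass. Of 26 genes of conjugation and flavin monooxygenases 1 rose, Fmo1, and 6 had a lower mean in TF. For this and the next lists, 0.542% of all genes rose. Fmo1, a flavin monooxygenase of drugs and other amines, read 1.43, 1.67, 1.72, 1.80 and 1.81 in TF livers, against 0.722, 0.709, 1.0, 1.12 and 0.891 in CS livers. TF-3 was the lowest TF liver and still above all CS livers. Fmo1 was 3.98-fold higher (0.80, SE 0.0970, adjusted p = 0.000494). Nr1i3, which encodes the constitutive androstane receptor CAR, a sensor of foreign compounds, read 0.776, 1.06, 0.809, 0.864 and 0.836 in TF livers, against 0.370, -0.0483, 0.353, 0.288 and 0.0664 in CS livers. It was 3.16-fold higher with no overlap (0.66, SE 0.0967, adjusted p = 0.00198). Of 29 cytochrome P450 genes of families 1 to 3, 3 rose, Cyp2j4 (2.19-fold, adjusted p = 0.000774), which oxidises polyunsaturated fatty acids, Cyp3a2 (1.87-fold, adjusted p = 0.0338) and Cyp2e1 (1.77-fold, adjusted p = 0.0291). No gene of that list fell, and 8 of the 29 lay higher in every TF liver than in any CS liver, the 3 that passed among them. Over all probe sets 1.3% did so. That share includes dim probe sets, whereas rat means of this list were 1.83 to 1.93 in TF livers, so the shares are not like for like. Cyp2b1 and Cyp2b2, the best known targets of CAR, were not analysed here. The carboxylesterases Ces1d (2.28-fold, adjusted p = 0.00106) and Ces1c (1.75-fold, adjusted p = 0.00131), which cleave esters and triacylglycerol, rose as well, and as members of a gene family they may share probes. The dimmer probe set of Ces1c had -0.12 (adjusted p = 0.770), and with the mean of both probe sets the difference was 0.10 (adjusted p = 0.536). Nqo1, the quinone reductase of the NRF2 programme, read 1.16, 1.35, 1.46, 1.22 and 1.13 in TF livers, against 0.825, 0.816, 0.316, 0.822 and 0.786 in CS livers. CS-5 was far below the other CS livers, and without it the call remained. Nqo1 was 2.60-fold higher (adjusted p = 0.00888), and it was the only 1 of 18 measured NRF2 targets to pass. Fmo1, Nr1i3, Cyp2j4, Ces1d and Ces1c held without any 1 rat, and Cyp3a2 and Cyp2e1 were each lost without 7 rats. Nqo1 lost its call in the fit to the TF and CS arrays alone and without TF-4, TF-5 and TS-7.

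Of 33 measured genes of amino acid breakdown, 4 rose and 0 fell, with a median of 0.117, where 0.542% of all genes rose and 0.211% fell. Hdc, histidine decarboxylase, which makes histamine, read 1.04, 0.864, 1.02, 0.835 and 0.575 in TF livers, against -0.0442, 0.232, -0.198, -0.207 and 0.318 in CS livers. The lowest TF liver was above the highest CS liver (0.85, SE 0.133, adjusted p = 0.00409). Hdc is also a marker of mast cells, of which it was the only 1 of 9 measured to pass, and the next in size, Cpa3 and Mcpt1, had -0.15 each. The rat means of the mast cell list, Hdc included, ran from -0.195 to -0.101 in TF livers and from -0.335 to -0.151 in CS livers, and the part of mast cells in the value of Hdc was not tested. The others were Oat, ornithine aminotransferase (2.18-fold, adjusted p = 0.0392), Gpt2, an alanine aminotransferase (1.74-fold, adjusted p = 0.00718), and Hpd, an enzyme of tyrosine breakdown (1.46-fold, adjusted p = 0.0403). Oat overlapped between the diets, since CS-6 (2.17) lay above TF-4 (2.06). Bckdk, the kinase that turns off the breakdown of branched chain amino acids, was 1.60-fold lower (adjusted p = 0.0439), and Gcdh, which acts in lysine breakdown, was 1.78-fold higher (adjusted p = 0.0132). The dimmer probe sets of Gcdh had 0.27 and 0.11 and did not pass (adjusted p = 0.199 and 0.583). Nupr1, a small chromatin protein of the stress response, read 0.596, 0.738, 0.845, 0.582 and 0.694 in TF livers, against 1.08, 1.23, 1.15, 1.23 and 1.16 in CS livers, 2.29-fold lower (adjusted p = 0.00684). Of the 22 genes of the ATF4 response, which answers a lack of amino acids, Gpt2 rose, Nupr1 fell and the median was -0.0388. Hdc, Gpt2, Gcdh and Nupr1 held without any 1 rat, although Hdc had an adjusted p of 0.0639 without TF-4, TF-5 and TS-7 and Gpt2 of 0.0835 without the 4 arrays of low 5′ actin, while Oat, Hpd and Bckdk lost their calls without 11, 12 and 16 rats.

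Among 23 genes of the acute phase and of innate sensing, 2 rose and the median was 0.0474, where 0.542% of all genes rose. Cd14, the co-receptor for bacterial lipopolysaccharide, read 1.30, 1.71, 1.71, 1.55 and 1.68 in TF livers, against 1.09, 0.989, 0.913, 0.953 and 0.771 in CS livers. TF-3 was the lowest TF liver, and no CS liver reached it. Cd14 was 3.07-fold higher (0.65, SE 0.0870, adjusted p = 0.0010). Cxcl13, a chemokine for B cells, rose by 0.57 (adjusted p = 0.0158), and Cxcl12, a chemokine of the stroma, was 1.67-fold higher at its brightest probe set (adjusted p = 0.0010) and not past the threshold at 2 others. Of 10 Kupffer cell and macrophage markers, which include cells that carry Cd14, 0 passed, and the rat means of the list ran from 1.18 to 1.39 in TF livers and from 1.18 to 1.39 in CS livers. Of 5 B lymphocyte markers 0 passed, with rat means from -0.116 to 0.0729 in TF livers and from -0.120 to -0.0211 in CS livers. In whole liver, fewer cells of a type and less RNA per cell cannot be told apart. Cd14 and Cxcl12 held without any 1 rat, and Cxcl13 was lost without CS-2, CS-5, TF-6 or TF-7 (adjusted p up to 0.0555) and without the 4 arrays of low 5′ actin. With the mean of its probe sets Cxcl12 lost its call.

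Iron, cell cycle and other lists held large or uniform differences that did not pass. Hamp, which encodes hepcidin, the hormone that closes iron export, read -0.0542, -0.374, 0.0230, 0.0129 and 0.149 in TF livers, against 1.22, 2.23, 2.55, 0.266 and 1.12 in CS livers. Every TF liver was below every CS liver, and the spread of Hamp in CS was wide (-1.53, SE 0.375, adjusted p = 0.0875). Hfe, an upstream sensor of iron, was 1.43-fold higher (adjusted p = 0.0105), the only call among 20 iron genes, and it had an adjusted p of 0.0921 without TF-4, TF-5 and TS-7. Of 27 cell cycle genes 0 passed and 25 had a lower mean in TF. Their median was -0.180, against 0.0101 over all genes, and lay between -0.233 and -0.139 without any 1 rat. No set test was run, so the count of signs is only a description. Mki67 and Top2a, markers of dividing cells, had -0.43 and -0.32 (adjusted p = 0.279 and 0.381). Of 22 retinoid genes 3 rose, where 0.542% of all genes did. They were Aldh1a1 (2.51-fold, adjusted p = 0.0269), which makes retinoic acid, and the retinal reductases Dhrs3 (1.59-fold, adjusted p = 0.0289) and Dhrs4 (1.5-fold, adjusted p = 0.0428). These 3 calls were lost without 5, 7 and 16 of the 20 rats. The dimmer probe set of Dhrs4 had 0.03 (adjusted p = 0.965), and with the mean of both probe sets Dhrs4 lost its call. Genes of glycolysis and gluconeogenesis, the urea cycle, the methionine cycle, the TCA cycle, the circadian clock, the interferon response and the growth hormone axis had 0 calls, with medians between -0.0185 and 0.0590. All marker lists other than that with Hdc had 0 calls. All 6 neutrophil markers had a higher mean in TF, with a median of 0.106 and S100a8 at 0.46 (adjusted p = 0.234), and their rat means ran from -0.431 to -0.245 in TF livers and from -0.552 to -0.433 in CS livers.

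**Figure D3:**
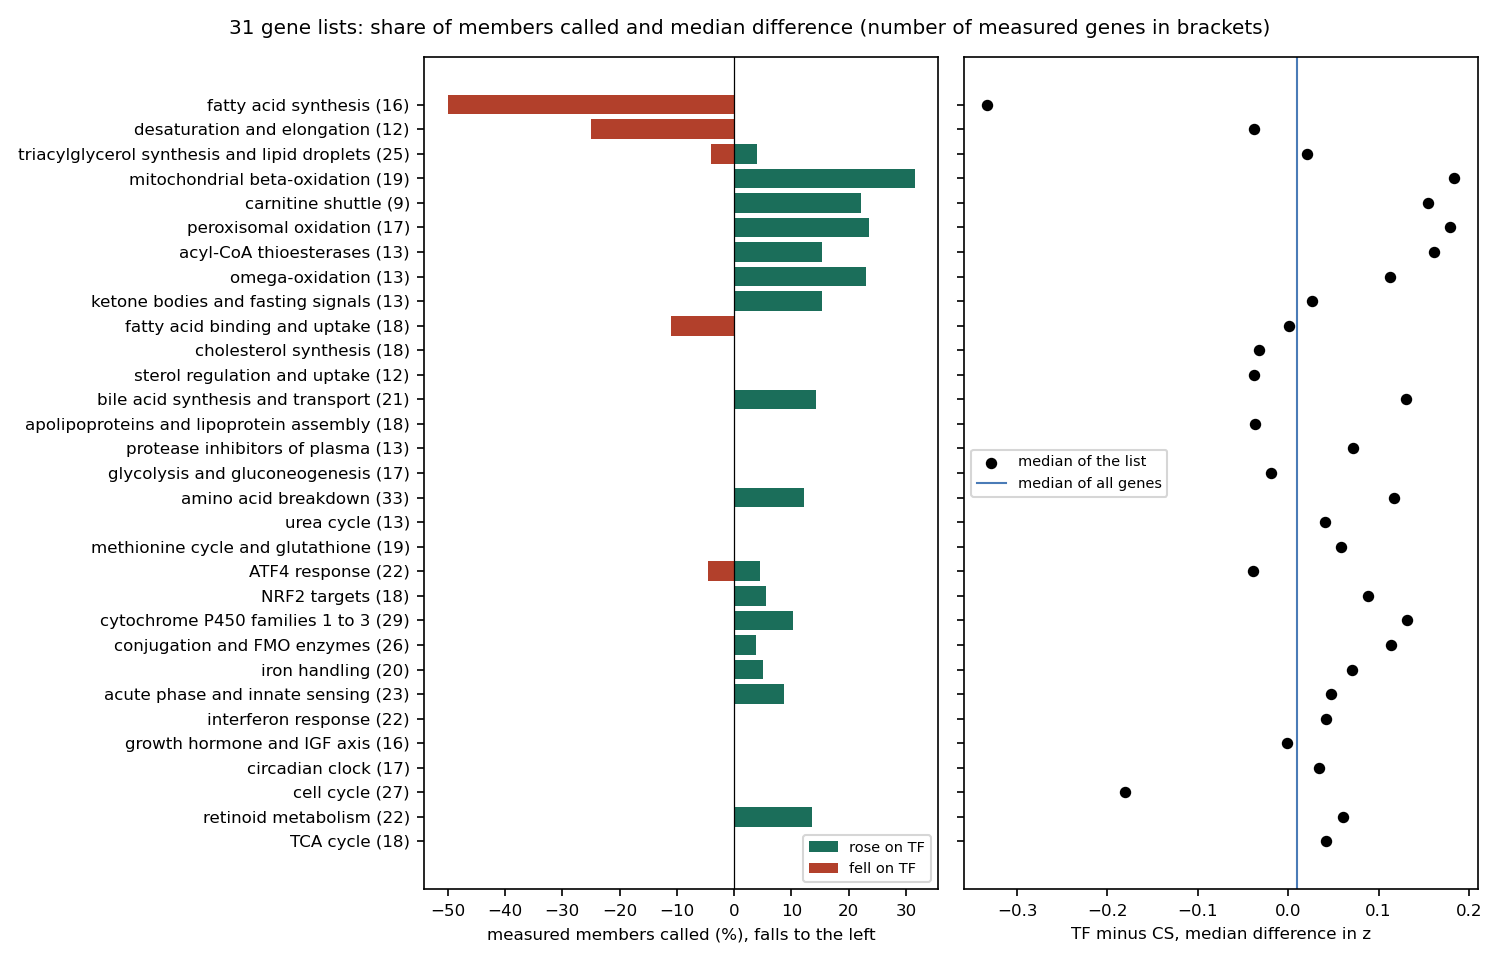
Left: percentage of the measured members of 31 gene lists (rows, number of genes in brackets) that rose (green, right) or fell (red, left) in TF against CS. Right: median difference in z of each list (points) beside the median of all genes (line, 0.0101). Fatty acid synthesis reaches furthest to the left with 8 of 16 members, and mitochondrial beta-oxidation furthest to the right with 6 of 19.

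Several genes outside the lists had narrow groups and small differences. Slc13a4, a sulfate transporter, read 1.59, 1.47, 1.56, 1.49 and 1.57 in TF livers, against 1.14, 1.18, 1.10, 1.18 and 1.14 in CS livers. With so little spread in either diet, its 1.96-fold rise had the lowest adjusted p among all rises (0.39 in z, SE 0.0392, adjusted p = 5.34e-05). Enpp2, autotaxin, which makes lysophosphatidic acid, was 1.95-fold higher (adjusted p = 0.00106), and Agmo, which cleaves ether lipids, 1.59-fold higher (adjusted p = 0.00187). Among the falls of this kind were Dgkq, a diacylglycerol kinase (1.49-fold lower, adjusted p = 0.00249), Xpc, a DNA repair protein (1.63-fold lower, adjusted p = 0.00409), Otub2, a deubiquitinase (1.88-fold lower, adjusted p = 0.00781), Sub1, a transcription coactivator (1.94-fold lower, adjusted p = 0.0150), and Aldh1l2, a mitochondrial folate enzyme (1.44-fold lower, adjusted p = 0.00735). LOC102554026, without a named function, was 2.38-fold higher (adjusted p = 0.0123), and Msl3l2 fell by 0.41 (adjusted p = 0.0129). The second probe set of Sub1 had -0.11 (adjusted p = 0.716), and with the mean of both Sub1 lost its call (-0.25, adjusted p = 0.117). Otub2, Sub1, Msl3l2 and LOC102554026 lost their calls without the 4 arrays of low 5′ actin, and Xpc, Sub1 and LOC102554026 without TF-4, TF-5 and TS-7.

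The TS and CF livers had either the tofu or the fish oil, and their comparison shares no array with TF or CS, though it shares the estimate of the spread. A gene that differed in the same direction in TS against CF is said to lie on the tofu side, and a gene that differed in the opposite direction on the fish oil side. Between TS and CF 47 of 31039 probe sets passed (0.151%), 9 higher (0.029%) and 38 lower (0.122%) in TS. All 30 genes that fell in TF had a lower mean in TS than in CF, where 42.8% of all 14217 genes did, and their median difference was -0.131. Of these 30, Pnpla3 (-1.35, adjusted p = 3.45e-05) and Fads2 (-0.44, adjusted p = 0.00719) passed in TS against CF, and 0 passed the other way. Fasn had -0.53 (adjusted p = 0.191) and Scd -0.41 (adjusted p = 0.387). Fabp5 was level between them, with -0.01 (SE 0.118), although it was among the deepest falls in TF.

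The 77 genes that rose in TF had no such common sign, with 30 lower in TS than in CF (39%), near the share of all genes. In TS against CF, 12 passed in the opposite direction, lower in TS: Acot1 (-2.77), Hdc (-1.01), Acot2 (-0.80), Vnn1 (-0.74), Aig1 (-0.71), Ech1 (-0.64), Eci1 (-0.61), Aldh1a1 (-0.59), Cyp4a1 (-0.54), Pex11a (-0.47), Cyp4a3 (-0.43) and Crot (-0.33). These lie on the fish oil side, and 8 of them, Acot1, Acot2, Ech1, Eci1, Cyp4a1, Pex11a, Cyp4a3 and Crot, belong to the lists of fatty acid breakdown. In the same direction, higher in TS, 4 passed: Fmo1 (0.67, adjusted p = 0.00246), Cxcl13 (0.61, adjusted p = 0.0144), Cd14 (0.54, adjusted p = 0.00719) and Ang, angiogenin (0.19, adjusted p = 0.0337). These lie on the tofu side. The other 61 did not pass, among them Abcg5 (0.21, adjusted p = 0.809), Abcg8 (0.27, adjusted p = 0.745), Nr1i3 (0.17, adjusted p = 0.861), Cyp8b1 (0.04, adjusted p = 0.989) and Acadm (-0.00462, adjusted p = 0.996).

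**Figure D4:**
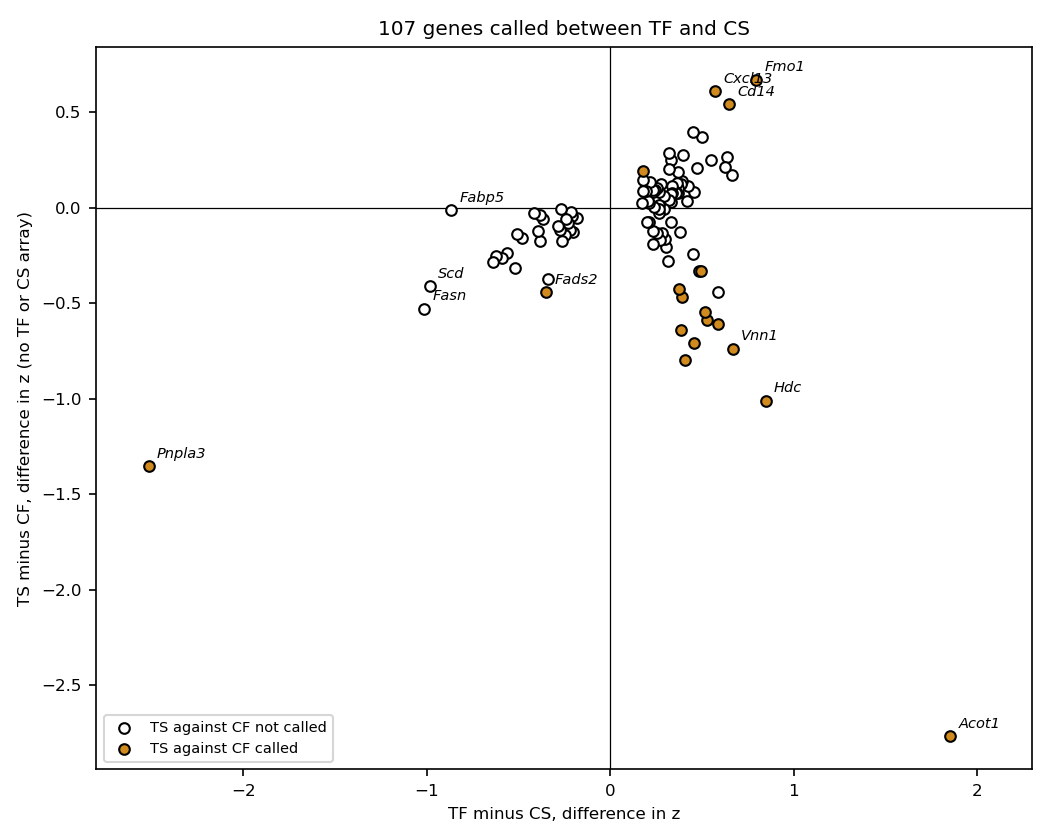
Each point is 1 of the 107 genes called between TF and CS, with its difference in TF against CS on the x axis and that in TS against CF, which uses other arrays, on the y axis (both in z). Filled points also passed in TS against CF. All falls, left of 0, lie below the horizontal line, whereas the rises spread from Fmo1 (0.67) above it to Acot1 (-2.77) below it.

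The single exchanges alone had calls in 22 probe sets for TS (0.0709%) and 14 for CF (0.0451%) against CS. Set beside CS, they gave the following values, which share the CS rats with the joint exchange and are therefore no separate evidence. Pnpla3 had -2.51 in TF, -2.04 in TS and -0.69 in CF. Fabp5 had -0.87 in TF, -0.41 in TS and -0.40 in CF, and Abcg5 0.63 in TF, 0.45 in TS and 0.24 in CF. Fmo1 had 0.80 in TF, 0.65 in TS and -0.02 in CF, and Acot1 1.85 in TF, -0.44 in TS and 2.33 in CF. In Fabp5 the TF livers, from 0.804 to 1.32, lay below the TS livers, from 1.33 to 1.71, which overlapped with the CF livers, from 1.25 to 1.86.

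Whether the joint exchange differed from the sum of the single ones was tested as an interaction, and 0 of 31039 probe sets passed in limma (0.0%), with 1065 at an unadjusted p under 0.05, where 1551.95 would be expected by chance. Of the 77 genes that rose, 36 had an interaction above 0 and 41 below it, with a median of -0.00404, and of the 30 that fell 10 were above and 20 below, with a median of -0.0277. The median SE of an interaction was 0.107, against 0.0754 for the difference between TF and CS. The lowest p among the called genes was that of Nqo1, whose interaction was -0.73 (SE 0.133, unadjusted p = 2.84e-05, adjusted p = 0.484). Nqo1 averaged 1.26 ± 0.139 in TF, 1.48 ± 0.136 in TS, 1.23 ± 0.0966 in CF and 0.713 ± 0.222 in CS (SD, n = 5 each), so that each diet with tofu or fish oil was above CS and TF was no higher than TS.

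**Figure D5:**
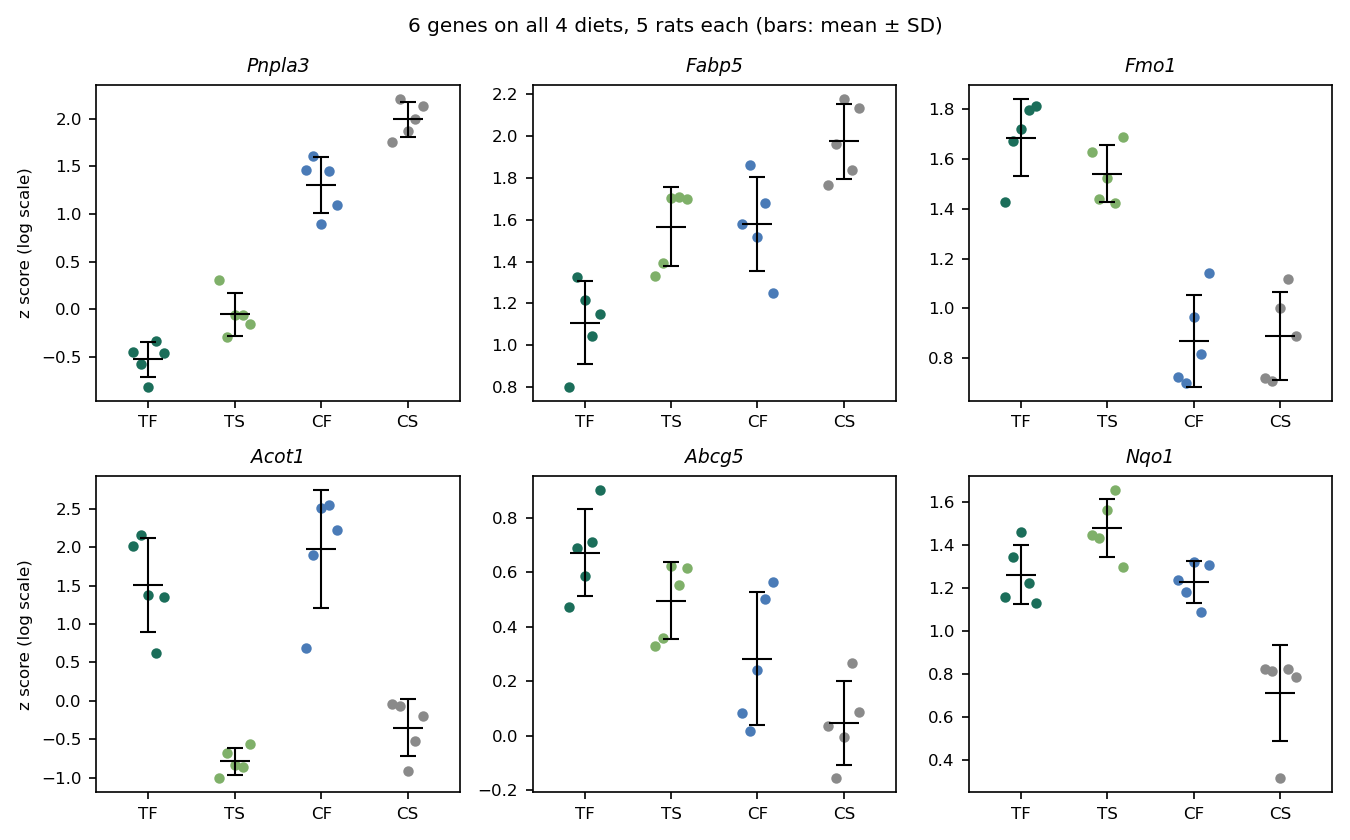
z scores (log scale, y axis) of 6 genes in single livers on the TF, TS, CF and CS diets (x axis), 5 rats each. Points are rats, the cross bar is the mean and the whiskers are ± SD, and the y axes differ. Acot1 is high on the 2 diets with fish oil and Fmo1 on the 2 with tofu. Fabp5 is lowest in TF, and Nqo1 is lowest in CS.

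Of the 107 called genes, 50 kept the call in each of the 20 fits without 1 rat, and 14 kept it under every setting tried: Pnpla3, Fasn, Scd, Acly, Fabp5, Fmo1, Cd14, Nr1i3, Crot, Ces1d, Cyp2j4, Enpp2, Slc13a4 and Lonp2. No called gene changed direction under any of these settings. In place of 142 probe sets, 91 were called without CS-2, 85 without CS-7, 81 without TF-6 and 83 without TF-7. Without the 4 arrays of low 5′ actin 48 of the 107 genes kept the call, without the 3 least correlated arrays 49, and in the fit to the TF and CS arrays alone 45. With low 5′ actin as a block in the fit to all 20 arrays, 105 of the 107 kept it.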

How the data were processed

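Liver RNA of single rats had been hybridised to Affymetrix GeneChip arrays of the rat genome, and the values deposited by the authors were z score values on a log scale, for which the SuperNORM service had standardized each array to its own distribution of signals. Its version and its treatment of background are not given in the sources used here, and the number of arrays limits the precision. The table held 31099 probe sets and lacked 63 single values. Its 57 control rows were not used, and 31039 probe sets with at least 3 values in each diet were tested. In R 4.3.3 with limma 3.58.1, 4 diet means were fitted to all 20 arrays with moderated variances, and p-values were adjusted by the Benjamini-Hochberg method over all probe sets, with 0.05 as threshold. The platform annotation, with symbols updated by identifier where possible (20757 of 20825), gave 20825 probe sets 1 symbol, 436 several and 9778 none, and a gene was read from its brightest probe set with 1 symbol.

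The members and lists were chosen with earlier results of these data known. By rule, the 15 largest rises and falls among called genes without overlap, up to 4 members of each list by size and all members of 4 lists could be named; other genes given were chosen after their values were seen. Alternatives were quantile and linear rescaling of the arrays, bright probe sets alone, a replicate block, other variance models and array weights. Others were the TF and CS arrays alone, the mean of a gene's probe sets, the methods' cutoffs and fits without 1 rat. Fits on arrays that stood apart were added after seeing the data. The fits were tested on simulated data.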

Additional observations from a re-analysis of the deposited data

Results flagged for a closer look

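In 31 of 570 groups of 5 values, 1 rat stood apart from the other 4 by Dixon's test, where chance alone gives 28.5. Of the TF rats, TF-3 stood apart 8 times, TF-4 5 times, TF-5 3 times, and TF-6 and TF-7 1 time each, and of the CS rats CS-1 5 times, CS-5 and CS-6 3 times each, CS-2 2 times and CS-7 0 times. TF-3 stood apart in Wnt11 (0.248 in z), Stard4 (0.59), Mug1 (0.559), Retsat (2.13), Rgs5 (-0.113) and Epb42 (-0.703), and in the 3′ minus 5′ differences of actin (0.787) and Gapdh (0.0864). TF-4 did so in Fads2 (2.06), Asic4 (0.224), Sat2 (0.921), Me1 (1.55) and Cel (-0.396), and TF-5 in Amacr (2), Mup5 (1.99) and Cd163 (0.206). TF-6 stood apart in Cdkn3 (0.125) and TF-7 in A2m (1.11).

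Among CS rats, CS-1 stood apart in Vnn1 (1.18), Top2a (0.766), Myh4 (-1.29), the 5′ actin control (1.39) and its 3′ minus 5′ difference (0.783). CS-6 did so in Fasn (2.01), Cyp4a1 (2.13) and Sqle (0.873), CS-5 in Nqo1 (0.316), Retsat (1.76) and Cpa3 (-0.192), and CS-2 in Adam15 (0.132) and Acot2 (1.48). The calls of Fasn, Cyp4a1, Nqo1 and Vnn1 held without any 1 rat.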

How the results depend on the processing

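In place of 142 probe sets (89 rises, 53 falls), bright probe sets alone gave 287 (175 and 112, and 81 between TS and CF in place of 47), a variance trend with robust moderation 227 (140 and 87), the TF and CS arrays alone 66 (42 and 24), the 16 arrays of higher 5′ actin 83 (55 and 28), and the 17 arrays left without the 3 least correlated 78 (42 rises). Rescaling the arrays to one median and interquartile range gave 149 rises. The cutoffs of the methods, an unadjusted p under 0.01 and a difference above 0.2 in z, gave 647 with the limma p. The methods applied them to an ANOVA of single probe signals, which was not repeated here. Quantile normalization gave 83 rises and 79 falls (51.2% rises, against 62.7%). Leaving out 1 rat at a time gave 81 to 142 probe sets, 49 to 94 rises, 29 to 57 falls and 34 to 53 between TS and CF. The interaction had 0 calls in every fit run. With a replicate block 43 were called (26 rises, 17 falls), and 27 of the called genes kept their call. Deviations of the 3 same-numbered TF and CS pairs correlated at -0.00722 to 0.039. Those of all 22 same-numbered pairs over the diets correlated at -0.0975 to 0.128, and those of 128 pairs with different numbers at -0.116 to 0.22. The last range holds the others, so these correlations cannot decide whether the rat numbers pair the samples. With low 5′ actin as a block 186 were called. No called gene changed direction. The causes of these changes were not tested. With 5 rats a diet, differences near the median SE of 0.0754 in z were not detectable, and larger ones were often missed. In the simulated data, 18% of 50 differences of 0.2 in z were recovered. The shares were 44% for 0.4, 68% for -0.4 and 92% for 0.8. A gene that did not pass may therefore still differ.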
